A study of Mus musculus with 19 samples.

Results

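Processed pseudogenes are copies of spliced messenger RNAs that were reverse transcribed and pasted back into the genome, as a rule without introns and without the promoter of the gene they came from. The members described here are the 9655 targets of 150173 in the ladder quantification files whose GENCODE M21 transcript type is processed pseudogene. They were chosen by that annotation alone, with no measured value. The annotation lists 9943 such transcripts. The standard libraries were quantified against 9654, 8312 and 9654 of them, and 8311 were in every file. In 559 members the symbol names the coding gene they derive from, called the parent (Rps6-ps4 for Rps6), and 246 parent genes were named in this way.

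The copies come mostly from genes that are read strongly in the germ line, above all ribosomal protein and glycolysis genes. Most lack the sequence needed to start transcription, so RNA from a copy usually depends on a promoter nearby or on a host gene that runs through it. Because a young copy is nearly identical to the exons of its parent, a short read from the parent can match the copy equally well, and the reverse holds too.

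The series measured RNA from mouse neural progenitor cells, the dividing cells that give rise to neurons and glia of the cortex, isolated from cortices of mouse embryos that were either wild type (WT) for Mettl14 or Mettl14 cKO (conditional knockout, KO) and cultured with 20 ng/ml FGF2 and 20 ng/ml EGF. Mettl14 is a subunit of the enzyme that writes N6-methyladenosine into messenger RNA. There were 4 WT and 4 KO ladder libraries, in which messenger RNA was separated by length into 7 bands before paired reads of 75 bases were taken, 3 standard WT libraries of single 50-base reads, and nanopore assemblies of native RNA and of cDNA with the replicates of a genotype pooled. Every culture received the same growth factors, and the Cre driver, the age of the embryos and the number of litters are not given in the sources used here. Since the labels do not tie replicates to separate cultures, p-values measure the spread between these samples, which may be technical.

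The stretches below, 90 bases each from GRCm38, carry the findings. The first pair shows a copy without any difference from its parent. Capitals mark the last base of one Rps6 exon and the first base of the next: the copy at chr2:75191670-75191759 (minus strand) runs straight through the join, while in Rps6 the same bases are spread over chr4:86856342-86856802 (minus strand) with 1 intron between them.
Rps6-ps4: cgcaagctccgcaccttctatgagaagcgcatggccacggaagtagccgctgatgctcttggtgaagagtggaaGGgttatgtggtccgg
Rps6: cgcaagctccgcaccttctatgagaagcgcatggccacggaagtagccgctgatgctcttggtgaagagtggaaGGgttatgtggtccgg

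The next 3 pairs show copies that differ from the coding gene, with the differing bases in capitals. They are Impdh2-ps (chr8:100031359-100031448, plus strand) beside Impdh2 (chr9:108563318-108563492, plus strand), Gm7901 (chr8:75711733-75711822, minus strand) beside Phgdh (chr3:98313443-98314242, minus strand) and Gm5905 (chr7:141178353-141178442, minus strand) beside Rps9 (chr7:3704374-3704660, plus strand). The windows hold 2, 5 and 3 differing bases, and each coding window spans 1 intron that the copy lacks.
Impdh2-ps: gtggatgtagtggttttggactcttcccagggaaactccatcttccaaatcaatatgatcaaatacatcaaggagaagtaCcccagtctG
Impdh2: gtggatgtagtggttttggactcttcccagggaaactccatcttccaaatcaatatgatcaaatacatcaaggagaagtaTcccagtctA
Gm7901: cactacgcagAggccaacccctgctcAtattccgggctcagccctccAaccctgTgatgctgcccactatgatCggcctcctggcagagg
Phgdh: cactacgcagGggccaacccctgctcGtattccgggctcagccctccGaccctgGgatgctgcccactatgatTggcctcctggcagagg
Gm5905: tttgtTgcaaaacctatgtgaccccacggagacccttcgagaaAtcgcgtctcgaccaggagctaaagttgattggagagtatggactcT
Rps9: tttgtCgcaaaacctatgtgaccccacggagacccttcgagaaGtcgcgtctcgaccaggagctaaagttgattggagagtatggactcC

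The last set shows 3 members that hold a run of 1 base, in capitals, and 1 member, Vamp7-ps, without such a run. By the count of exact words described below, no word of Vamp7-ps occurs in another gene of the annotation. Its symbol points to Vamp7, but no parent was assigned to it, and likeness short of exact words was not tested. The stretches are from Gm19220 (chr12:40893693-40893782, plus strand), Gm2961 (chr8:62193775-62193864, minus strand), Gm15515 (chr14:96232010-96232099, plus strand) and Vamp7-ps (chr2:174046902-174046991, minus strand), and they were chosen after the values of these members were seen.
Gm19220: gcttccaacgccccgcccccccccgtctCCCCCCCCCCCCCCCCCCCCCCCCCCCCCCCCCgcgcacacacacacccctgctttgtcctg
Gm2961: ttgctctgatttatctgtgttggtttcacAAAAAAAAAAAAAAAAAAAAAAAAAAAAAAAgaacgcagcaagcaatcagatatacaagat
Gm15515: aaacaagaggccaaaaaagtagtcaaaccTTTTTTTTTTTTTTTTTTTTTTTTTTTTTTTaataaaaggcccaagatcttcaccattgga
Vamp7-ps: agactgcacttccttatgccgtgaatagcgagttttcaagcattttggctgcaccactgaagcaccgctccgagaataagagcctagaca

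The annotated copies had the shape of processed messenger RNA. Of the 9655 members, 8740 had a single exon, and among the 559 copies with a named parent 532 were of 1 exon although all 559 parent transcripts had more, with a median of 6. The median length of a member was 528 bases, within a range of 18 to 6514. Copies rarely lay near their source, as 23 of the 559 pairs shared a chromosome. The X chromosome held 925 members, which is 9.58% of them, beside 4.32% of coding genes. Between genes lay 6888 members, 1481 were within an intron of a gene on the opposite strand and 965 within an intron on the same strand.

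Copies with a named parent were on median 95.4% identical to it, with a lowest value of 64.5%, and 21 copies were 100% identical over their whole length. How much of a copy can be told from other genes was measured as the share of its 31-base words (31-mers) that occur in no other gene of the annotation, called own 31-mers here. The median over members was 84.4% own 31-mers, while 456 members had none. A further measure of likeness was that 114 members fell into 48 sets of identical sequence. In all 48 sets the copies had equal values in the ladder libraries, and 20 of these sets were above 0.

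Mettl14 itself stood at 28.6, 23.2, 32.5 and 31.6 CPM (counts per 1e6 counts of a library) in the WT ladder libraries and at 7.02, 9.25, 7.59 and 7.91 CPM in the KO libraries, a log2 fold change of -1.87 (SE 0.13, edgeR adjusted p = 5.37e-07). Progenitor markers were high, with 10 of 10 above 1 CPM in both genotypes and a summed level of 8753 to 9311 CPM in WT and 6448 to 7366 in KO. Of these, Fabp7 (mean 4527 to 2733 CPM) and Vim (2943 to 2025 CPM) were lower in KO by edgeR. Nes (194 to 430 CPM) and Notch1 (237 to 374 CPM) were higher, and Sox2, Sox1, Pax6, Hes5, Hes1 and Slc1a3 were not called. Neuron markers, with 5 of 5 above 1 CPM in WT and 3 of 5 in KO, summed to 41.6 to 46.6 CPM in WT and 15.4 to 18.2 in KO, and all 5 were lower in KO by edgeR. Of 7 markers of the oligodendrocyte lineage, which summed to 1312 to 1958 CPM in WT and 1941 to 2324 in KO, Olig1 was higher in KO while Pdgfra (mean 99.96 to 5.23 CPM), Sox10, Cspg4 and Mbp were lower. Astrocyte markers summed to 525 to 860 and 524 to 596 CPM, and of these Gfap, Aqp4, S100b and Slc1a2 were higher in KO and Aldh1l1 lower (526 to 188 CPM). Fibroblast, microglia, endothelial and blood markers each summed to 4.74 CPM or less in any library of either genotype, and Hbb-bs was at 0. The part of cell makeup in the results below was not tested, and in bulk RNA fewer cells of a type and less RNA per cell cannot be told apart. Ladder libraries held 1.04e8 to 1.27e8 estimated counts and standard libraries 1.21e7 to 1.40e7.

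Processed pseudogenes took about 1 in 100 of the counts of a ladder library. Their share was 0.911%, 1.03%, 1.05% and 1.04% in the WT libraries and 0.985%, 0.848%, 0.822% and 0.837% in the KO libraries. The groups overlapped through KO replicate 1, which lay above WT replicate 1. The mean was 1.01% ± 0.07 (SD, n = 4) in WT and 0.873% ± 0.075 (n = 4) in KO, a difference of -0.135 percentage points with an exact two-sided permutation p of 0.0571, where 0.0286 is the smallest p that 4 against 4 allows. The direction depended on the unit. By deposited TPM, which divides by length, KO was 0.170 percentage points higher (exact p = 0.257), and over the annotated targets shared by all files KO was lower by 0.237 percentage points (exact p = 0.0286).

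Most of these counts lay on copies with few or no own 31-mers. Of the 9655 members, 3624 had no count in any of the 8 ladder libraries, 119 reached a mean of 1 CPM in WT and 24 reached 100 CPM. The 456 members without own 31-mers summed to 5877 CPM in WT and 5233 CPM in KO, which was 59.3% and 58.9% of all pseudogene CPM. By contrast, the 4181 members with over 90% own 31-mers summed to 138 CPM in WT and 39.7 CPM in KO. Gm19220 by itself made up 105 CPM of the WT sum. A filter on low counts, which a member passes by a count of about 10 in a group of libraries, kept 735 of the 9655. It kept 11.4% of the members without own 31-mers, 23.4% of those above 0 and up to 10%, 22.7% of those with 10 to 50%, 5.12% of those with 50 to 90% and 0.909% of those with over 90%. The members that passed were also longer, with a median of 760 bases.

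**Figure D1:**
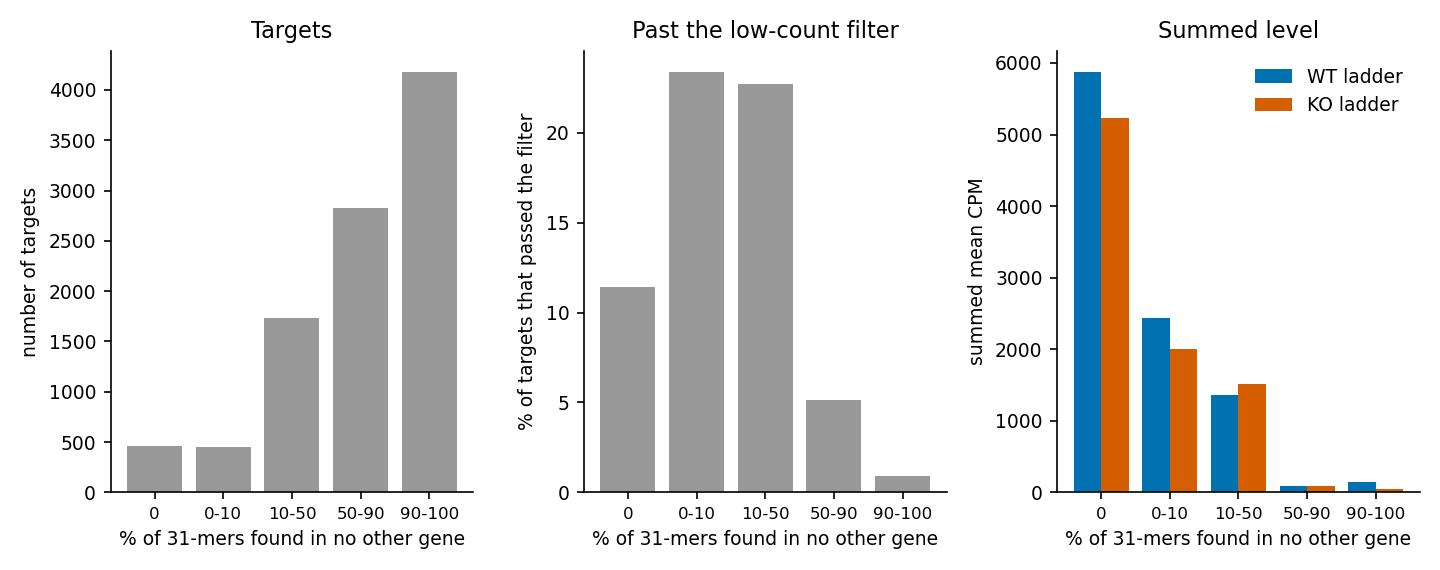
Processed pseudogenes by the share of their 31-mers found in no other gene. The panels show the number of targets, the percentage that passed the low-count filter and the mean CPM summed over the targets of each class in WT (blue) and KO (orange) ladder libraries. The largest class, over 90% own 31-mers, has 4181 targets and the lowest passing share, 0.909%, while the class without own 31-mers holds the largest summed level, 5877 CPM in WT.

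The same held along the identity to the parent. Of 138 named copies under 90% identity 6 passed the filter, and of 131 copies between 90% and 95% 11 passed. Between 98% and 99.5% identity 51 of 110 copies passed, and at 99.5% or more 27 of 60. The summed WT level rose from 2.77 CPM in the first of these classes to 2905 CPM in the last.

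A smaller share of pseudogenes than of all tested targets was called between KO and WT. Of the 735 tested, 61 were higher in KO (8.30%) and 114 lower (15.5%) at an adjusted p of 0.05 in edgeR, beside 18.2% higher and 19.1% lower among all 59136 targets tested. Both directions together gave 175 members or 23.8%, against 37.3% of all targets. The values of the 4 KO libraries did not overlap those of the 4 WT libraries in 195 tested members (26.5%), against 39.3% of all targets. The median log2 fold change was -0.04 over tested members and -0.06 over all tested targets. The 246 named parents were tested as genes, with the counts of their transcripts summed. Of the 236 that passed the filter, 56 were higher and 36 lower in KO, beside 26.4% higher and 27.2% lower (53.6% in all) among all genes.

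By role of the parent, the ribosomal protein copies were the largest class. Ribosomal proteins build the 2 subunits of the ribosome, and 285 copies had a parent among them. Of these, 103 passed the filter, 4 were higher and 1 was lower in KO, with a median log2 fold change of 0.19. Among all targets tested, 18.2% were higher and 19.1% lower. The summed level of the 285 copies was 3319 CPM in WT and 3497 CPM in KO. Among the 59 ribosomal parents 6 were higher and 4 lower, beside 26.4% higher and 27.2% lower among all genes tested. The 4 parents in glycolysis, the breakdown of glucose, were all lower in KO, with a median log2 fold change of -1.55. None of their 8 copies named by symbol passed the filter.

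The parents with most copies showed how unevenly the counts fell among copies of 1 gene. Rpl31, a protein of the large subunit, had 24 copies on 13 chromosomes that were 83.9% to 100% identical to it. Their summed level was 263 CPM in WT and 338 CPM in KO, of which the single copy Rpl31-ps8, identical to Rpl31 along its whole length, held 260 and 335 CPM. None of the 8 tested Rpl31 copies was called. In the other large families no copy was identical to its parent: the 23 copies of Rps12, 15 of Rpl21, 14 of Rpl23a, 14 of Rps19 and 13 of Rpl7a summed to between 0.940 CPM (Rpl7a) and 2.06 CPM (Rps12) in WT. Their parents stood at 29.1 CPM for Rps12 and between 880 CPM (Rpl21) and 2039 CPM (Rpl23a) for the others. The levels of parents are summed over transcripts and are not divided by length.

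Rps6-ps4, a full copy of the Rps6 coding sequence on chromosome 2 within an intron of 2600014E21Rik on the other strand, had the largest rise. Rps6 is a protein of the small ribosomal subunit and a classic target of the S6 kinases. The copy is 750 bases long, has no own 31-mer and matches 750 of 750 aligned bases of the parent transcript across 4 exon joins. It stood at 0.295, 0.0000000492, 2.29 and 0.101 CPM in the WT libraries and at 141, 78.7, 68.8 and 230 CPM in the KO libraries. Every KO value lay above every WT value, and WT replicate 3 was the highest of its group. The log2 fold change was 7.58 (SE 1.46, edgeR adjusted p = 0.00533). WT replicate 2, near 0, was under the minimum of the low-count filter. Rps6-ps4 passed that filter by its KO values, so the call depends in part on that selection. Rps6 itself stood at 49.9, 57.0, 58.7 and 67.1 CPM in WT and at 46.6, 44.9, 40.0 and 61.0 CPM in KO, and was not called (log2 fold change -0.33, SE 0.14, edgeR adjusted p = 0.0706). The log2 ratio of Rps6-ps4 to Rps6, with 0.1 CPM added to each, went from -7.29 ± 1.99 (SD, n = 4) in WT to 1.27 ± 0.57 (n = 4) in KO, a difference of 8.56 with an exact two-sided permutation p of 0.0286.

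Other measurements of Rps6-ps4 in WT cells did not show the low level of the WT ladder libraries. Over the shared targets the standard WT libraries gave it 206, 199 and 211 CPM, where the WT ladder libraries gave 0.461, 0.0000000801, 3.66 and 0.163. The 3 standard values were close together and all above the ladder values (log2 fold change -7.57, SE 1.53, edgeR adjusted p = 0.00552). In native long reads, a single-exon structure over the copy had 2019 TPM in WT and 1972 TPM in KO, beside 587 and 565 TPM for the spliced structures of Rps6. Per length, Rps6-ps4 was at 0.794 TPM in WT ladder libraries, 170 in KO ladder libraries and 691 in standard libraries, while Rps6 was at 67.0, 53.7 and 891 TPM.

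The members whose pattern over the 8 ladder libraries was most like that of Rps6-ps4, by Pearson correlation of log2(CPM + 0.1), were Gm13337 and Llph-ps2 (r = 0.97 each) and Gm43058, Gm11517 and Rps3a3 (r = 0.96 each). All 5 share the split between genotypes with it, and the correlation is given as a description over 8 libraries. Llph-ps2 had a mean of 27.1 CPM in KO, above the WT libraries, which lay at 11.8, 9.69, 14.9986 and 11.4 CPM. Its parent Llph also rose, from a mean of 57.4 to 104 CPM (log2 fold change 0.79, edgeR adjusted p = 0.000416). Gm11517, with 81.2% own 31-mers, lay at 0.231 to 0.357 CPM in WT and 1.26 to 1.54 in KO, whereas Gm43058 lay at 0.0467 CPM or less in every library.

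Gm5182 and Gm5905 rose while their closest coding genes were not called. The closest coding gene is the one that shares most 31-mers with a copy. Gm5182, 6092 bases of the mRNA of Acaca, the enzyme that starts fatty acid synthesis, covers 45 exon joins of it with 20 mismatches. Its level was 0.475, 0.446, 0.301 and 0.310 CPM in WT and 4.92, 4.26, 4.15 and 3.64 CPM in KO. The groups lay far apart with little spread (log2 fold change 3.46, SE 0.21, edgeR adjusted p = 2.21e-05), and Acaca had a log2 fold change of 0.46 (adjusted p = 0.0740). On the shared scale Gm5182 was at 10.1 CPM or more in standard WT libraries and at 0.742 CPM or less in WT ladder libraries (-4.22, adjusted p = 8.01e-05). Gm5905, a copy of the small-subunit gene Rps9 with 11 mismatches over 580 aligned positions, was at 0.439, 0.640, 0.413 and 0.906 CPM in WT. In KO it was at 3.54, 4.84, 2.07 and 3.40 CPM, all above the WT values (log2 fold change 2.52, SE 0.34, edgeR adjusted p = 0.000788). Rps9 was not called (0.26, adjusted p = 0.206).

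Copies of Phgdh rose together. Phgdh catalyses the first step of serine synthesis from a glycolysis intermediate. Of 12 copies that share most 31-mers with it, 8 passed the filter, all 8 were higher in KO and in all 8 the genotypes did not overlap. Their log2 fold changes ran from 1.26 to 1.73, with 13.6% to 59.4% own 31-mers, and the 8 were listed after their values were seen. Among all targets tested, 18.2% were higher in KO and 39.3% did not overlap. Phgdh-ps1 in WT replicate 4 (0.0828 CPM) and Gm7669 in WT replicate 1 (0.0886 CPM) lay under the filter's minimum. Both passed it by their KO values, so their calls depend in part on that selection. Gm7901, the highest of the 8, was at 7.84, 7.94, 8.90 and 7.89 CPM in WT and at 31.9, 22.3, 26.3 and 22.9 CPM in KO (log2 fold change 1.67, SE 0.14, edgeR adjusted p = 8.17e-05). WT values were tight and every KO value lay above them. Phgdh rose less, from a mean of 255 to 357 CPM (log2 fold change 0.43, SE 0.10, adjusted p = 0.00422). For Phgdh-ps1, the copy the symbol ties to it, the log2 ratio to Phgdh differed by 0.81 between KO and WT (exact p = 0.0571), and by -0.10 where 1 CPM in place of 0.1 CPM was added to both.

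Rps3a3, within an intron of Pde4d on its strand, rose while its closest gene fell. Rps3a3 stood at 66.4, 49.1, 69.7 and 64.2 CPM in WT and at 173, 157, 141 and 281 CPM in KO, with KO replicate 4 highest and no overlap (log2 fold change 1.59, SE 0.23, edgeR adjusted p = 0.00110). Rps3a1, a small-subunit gene, fell from a mean of 1788 to 1246 CPM (-0.58, SE 0.16, adjusted p = 0.00836). The copy has 9 mismatches over 795 bases and 21.6% own 31-mers.

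Of the remaining rises named by rule, those of AA414768 and Gm5417 were seen in all 4 KO libraries and that of Gm715 rested mainly on 1. AA414768 on the X chromosome, with 90.4% own 31-mers and no close coding gene, was at 0.945 to 1.44 CPM in WT and 4.11 to 4.65 in KO (log2 fold change 1.86, SE 0.17, edgeR adjusted p = 0.000111). Gm5417, a copy of part of Vkorc1l1, which recycles vitamin K, was at 0.155 to 0.783 CPM in WT and 1.03 to 2.33 in KO. Its log2 fold change was 1.99 (SE 0.49, edgeR adjusted p = 0.0131). Gm715 had 0, 0.125, 0.0616 and 0.0433 CPM in WT and 0.285, 7.38, 0.281 and 0.160 CPM in KO. Except in replicate 2, its WT values lay under the minimum of the low-count filter. Gm715 passed that filter by its KO values, so its call depends on that selection. KO replicate 2 stood far above the rest. With it the log2 fold change was 5.08 (edgeR adjusted p = 0.0388), and without it 2.03 (adjusted p = 0.0744). The call was also lost without any 1 of the 4 WT libraries (adjusted p of 0.0330 to 0.0896 over all libraries left out in turn).

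**Figure D2:**
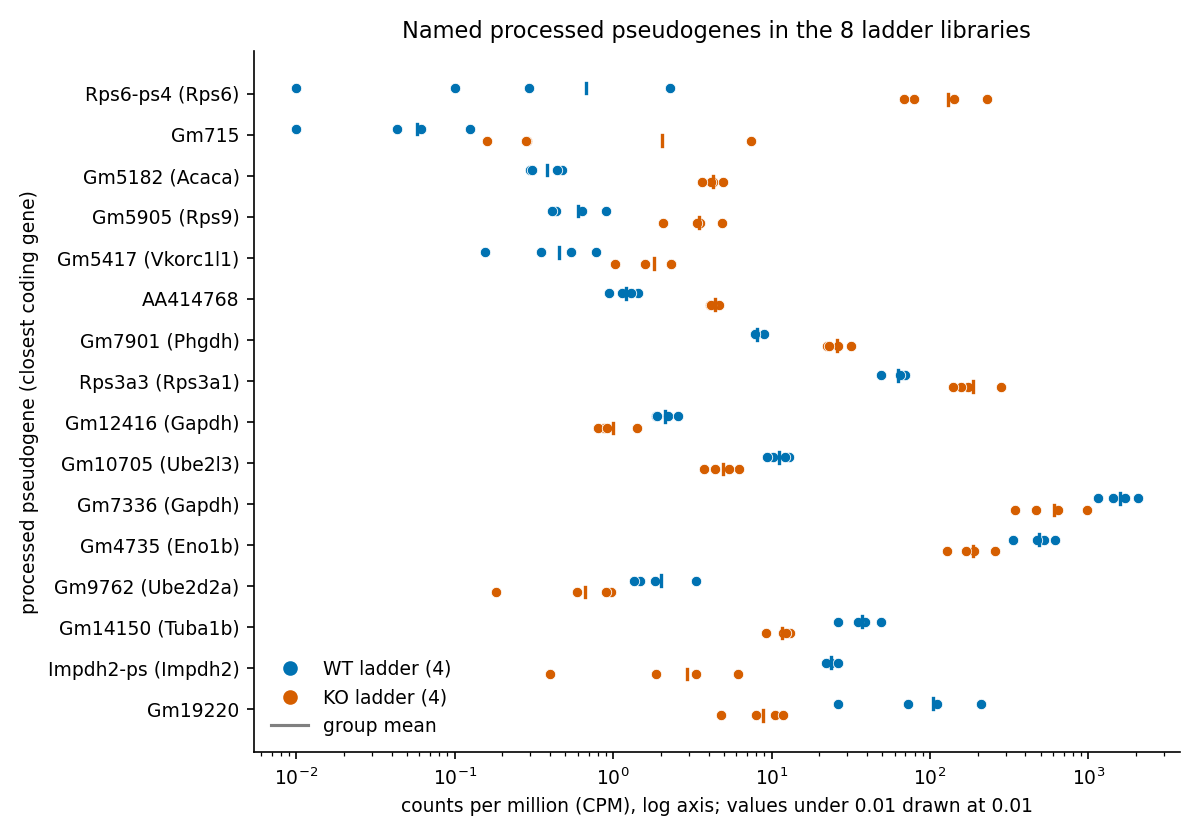
CPM (log axis) of the 8 largest rises and 8 largest falls among processed pseudogenes in the 4 WT (blue) and 4 KO (orange) ladder libraries, with the closest coding gene in brackets and vertical bars at group means. Rps6-ps4 lies at 2.29 CPM or less in WT and at 68.8 CPM or more in KO, and Gm715 has a single high KO library at 7.38 CPM.

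Impdh2-ps fell while its parent was not called. Impdh2 makes xanthosine monophosphate, the step that limits guanine nucleotide synthesis. The copy spans 13 exon joins of Impdh2 with 4 mismatches over 1545 bases and has 6.73% own 31-mers. Its WT values were 23.6, 22.8, 26.1 and 22.2 CPM and its KO values 0.402, 6.12, 1.86 and 3.34 CPM. WT values were tight, and the KO values were spread widely below them. The log2 fold change was -3.01 (SE 0.69, edgeR adjusted p = 0.0111), while that of Impdh2 was 0.04 (SE 0.09, adjusted p = 0.718). The log2 ratio of copy to parent differed by -3.57 (exact two-sided permutation p = 0.0286). In the standard WT libraries Impdh2-ps was at 0, 1.18 and 0.425 CPM on the shared scale, against a mean of 37.8 in the WT ladder libraries (log2 fold change 6.10, edgeR adjusted p = 0.00133), so WT cells showed a low level by that library type. Its native structure had 23.5 TPM in WT and 38.6 TPM in KO.

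Copies of Gapdh, the glycolysis enzyme that oxidises glyceraldehyde phosphate, fell together with it. Gapdh went from 3947, 3594, 3388 and 2923 CPM in WT to 1018, 1586, 1656 and 2155 CPM in KO, with no overlap (log2 fold change -1.17, SE 0.20, edgeR adjusted p = 0.000510). Of 53 copies that share most 31-mers with it, 34 passed the filter, 28 were lower and 1 was higher in KO, with a median log2 fold change of -1.16. Among all targets tested, 19.1% were lower and 18.2% higher. Summed over copies the level went from 1595 to 617 CPM. Nearly all of this was Gm7336, which differs from its Gapdh transcript by 1 mismatch and has no own 31-mer. It stood at 1140, 2044, 1418 and 1689 CPM in WT and at 972, 643, 341 and 468 CPM in KO (-1.38, SE 0.33, adjusted p = 0.0121). The highest KO value, in replicate 1, came close to the lowest WT value, also in replicate 1. Gm12416, with 34.2% own 31-mers, was at 1.86 to 2.55 CPM in WT and 0.801 to 1.41 CPM in KO (-1.09, adjusted p = 0.00542).

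Gm4735, an enolase copy, behaved likewise. Enolase makes phosphoenolpyruvate in glycolysis. Gm4735 had 521, 336, 611 and 475 CPM in WT and 256, 190, 168 and 128 CPM in KO, again without overlap (log2 fold change -1.39, SE 0.25, edgeR adjusted p = 0.00292). Of its 1272 31-mers, 1207 are shared with Eno1b, itself a gene of 1 exon with a mean of 0.234 CPM in WT. Eno1 shares 1139 of the 1272. In standard WT libraries Gm4735 was at 2.06 CPM or less on the shared scale, against 547 to 976 CPM in WT ladder libraries (9.52, adjusted p = 5.86e-05). Eno1, the spliced enolase gene, fell from a mean of 2418 to 1302 CPM (-0.95, SE 0.11, adjusted p = 2.44e-05).

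Further falls named by rule differed from their closest gene. Gm14150, with 17 mismatches to the alpha-tubulin gene Tuba1b, went from 26.3 to 49.0 CPM in WT to 9.19 to 13.1 CPM in KO (log2 fold change -1.68, SE 0.20, edgeR adjusted p = 0.000417), while Tuba1b had 0.04. Gm10705 copies Ube2l3, a ubiquitin-conjugating enzyme. The copy went from 9.33 to 12.97 CPM in WT to 3.77 to 6.25 in KO (-1.17, SE 0.19, adjusted p = 0.00191), whereas Ube2l3 rose (0.39, adjusted p = 0.0124). Gm9762, identical to part of another such enzyme gene, Ube2d2a, had 1.35 to 3.34 CPM in WT and 0.183 to 0.970 CPM in KO. Its log2 fold change was -1.60 (SE 0.51, edgeR adjusted p = 0.0388), and this call was lost without WT replicate 1, 2 or 3 or KO replicate 3 or 4 (adjusted p of 0.0380 to 0.0964 over the libraries left out in turn).

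Gm19220 combined a high level with own sequence, and holds the run of C printed above. It has 99.6% own 31-mers, lies between genes and had no single-exon structure in any of the 8 long-read assemblies. The WT ladder values were 26.2, 209, 110 and 72.6 CPM and the KO values 4.78, 7.99, 10.5 and 11.8 CPM. WT spread over a wide range, with replicate 1 closest to KO, and the groups did not overlap (log2 fold change -3.57, SE 0.64, edgeR adjusted p = 0.00376). In the standard libraries it stood at 165, 167 and 232 CPM on the shared scale, against 40.9, 340, 176 and 117 in WT ladder libraries. Its run of 33 C is the only run of C or G of 31 or more bases among the 9655 members.

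Over all tested members with a close coding gene, copy and gene moved together only loosely. The closest gene, or the parent where the symbol names it, was tested for 613 members and was 1 of 232 genes. Across these 613 pairs the log2 fold changes had a Pearson r of 0.27 and a Spearman rho of 0.38, over pairs that share genes, libraries and in part reads. Of 128 called members with a tested gene, 26 rose with a gene that rose and 42 fell with one that fell. In 5 the copy rose and the gene fell, in 7 the copy fell and the gene rose, and for 48 the gene was not called. Over the 126 tested pairs named by symbol, the median difference in log2 ratio of copy to parent was -0.10 between KO and WT, with 49 pairs higher and 77 lower in KO.

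For 14 pairs the ratio was tested by itself, and 3 reached the smallest p that the exact test allows. Beside Rps6-ps4 and Impdh2-ps this was Bambi-ps1, named after its values were seen. Bambi is a decoy receptor that dampens TGF-beta signalling. Bambi-ps1 was 88.4% identical to it with 97.0% own 31-mers, and stood at 0.608, 0.620, 0.618 and 0.556 CPM in WT and 0.869, 0.988, 0.855 and 1.21 CPM in KO. Both rose, the copy by a log2 fold change of 0.71 (edgeR adjusted p = 0.0118) and the parent by 1.51 (2.56e-07), so that the ratio differed by -0.92 (exact p = 0.0286). The p-values were not adjusted over the 14 pairs.

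**Figure D3:**
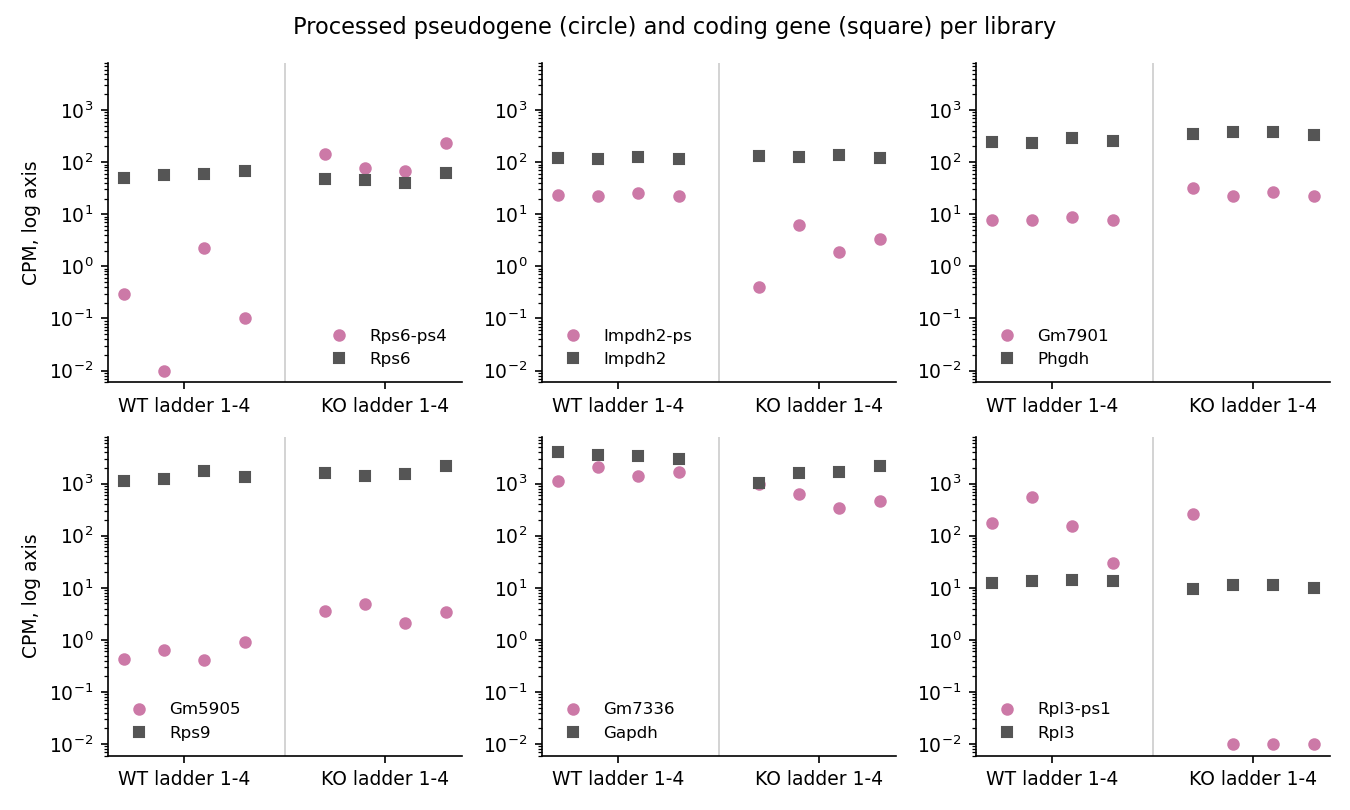
CPM (log axis, values under 0.01 drawn at 0.01) of 6 processed pseudogenes (circles) and their coding genes (squares) in each ladder library, WT left and KO right of the line. Rps6-ps4 and Impdh2-ps change against a nearly level coding gene, Gm7336 falls with Gapdh, and Rpl3-ps1 is high in 1 of 4 KO libraries.

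Of the 10 members with the highest WT levels, 7 were not called between genotypes and Gm7336, Gm4735 and Rpl10a-ps1 fell. Gm12918, identical over 636 bases to Rpl13 of the large subunit, was at 939 to 1349 CPM in WT and 916 to 1274 CPM in KO (log2 fold change -0.11, edgeR adjusted p = 0.610). Per length it had 1901 TPM in WT beside 1280 TPM for Rpl13. Gm7536 (Rpl27a), Rpl28-ps1, Gm6136 (Rpl6), Rpsa-ps10, Rpl19-ps11 and Rpl31-ps8 followed, with mean WT levels between 260 and 447 CPM and none called. Rpl10a-ps1 was at 556 to 706 CPM in WT and 349 to 504 in KO (-0.46, SE 0.14, adjusted p = 0.0331), as Rpl10a fell too (-0.65, adjusted p = 0.0156). This call was lost without WT replicate 1, 3 or 4 or KO replicate 2, 3 or 4 (adjusted p of 0.0336 to 0.0745 over the libraries left out in turn). Without WT replicate 3, Rpl31-ps8 was called higher in KO (0.56, adjusted p = 0.0430, with 0.0430 to 0.405 over the libraries left out in turn). Rpl19-ps11 had 541, 533 and 379 CPM in 3 KO libraries and 33.0 CPM in KO replicate 4.

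A few copies switched on and off between libraries of the same genotype. Of 63 members that reached 10 CPM in a WT library, 5 were under 0.1 CPM in another WT library, and in KO it was 4 of 62. All of them had 10% own 31-mers or fewer. Rpl3-ps1, with 2 mismatches to Rpl3 over 1210 bases, was at 174, 559, 153 and 29.2 CPM in WT and at 258 CPM in KO replicate 1, with 0.0000000563, 0 and 0 in the other KO libraries. The genotypes overlapped and it was not called (log2 fold change -1.83, SE 2.49, edgeR adjusted p = 0.598). Rpl3 lay at 12.2 to 14.2 CPM in WT and 9.63 to 11.3 CPM in KO, a narrow range within each genotype, and was lower in KO (-0.40, SE 0.09, adjusted p = 0.00349). Rpl15-ps3, without own 31-mers, had 0 CPM in WT replicate 1 and 64.0, 60.2 and 68.1 CPM in the other WT libraries. Gm9794 (Rpl23), Gm10221 (Atp5l), Gm10123 (Ppia), Gm12481 (Fam221b) and Dynlt1-ps1 (Dynlt1c) were the other such members, chosen after their values were seen.

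Between library types 438 of 883 tested pseudogenes (49.6%) were called, close to the share of all targets (47.4%). WT ladder libraries were compared with WT standard libraries over the shared targets. Pseudogenes took 1.29% ± 0.06 (SD, n = 4) of the counts in ladder and 0.918% ± 0.175 (n = 3) in standard libraries, a difference of 0.374 percentage points (exact two-sided permutation p = 0.0286, the smallest that 4 against 3 allows). With deposited TPM the difference was 0.686 percentage points (exact p = 0.0857), and over every target of each file it was 0.0935 (exact p = 0.343). Of 883 tested members, 234 were higher in ladder libraries (26.5%) and 204 lower (23.1%), beside 24.0% and 23.4% of all 48866 targets tested. Assembled targets without an annotation lie outside the shared scale and held 11.9% to 13.4% of ladder counts. The count of higher members fell to 142 to 148 where WT ladder replicate 2, 3 or 4 was left out. The median log2 fold change was 0.52 over tested members and 0.11 over all targets, and DESeq2's size factors shifted the members' median by -0.11. Protocol, read length, pairing, instrument and the set of targets quantified against differ together between these libraries and cannot be told apart. Ladder files held 150173 targets, and standard files 116067, 107368 and 116067 for replicates 1, 2 and 3.

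Differences past 16-fold were most frequent in copies with 10% own 31-mers or fewer. Past 16-fold were 78 members higher and 105 lower in ladder libraries, 20.7% of those tested against 15.7% of all targets. This held for 50.0% of tested members without own 31-mers, 38.2% of those above 0 and up to 10%, 13.2% with 10 to 50%, 13.1% with 50 to 90% and 21.3% with over 90%. In 11 members the 4 WT ladder libraries together held less than 1 count while each standard library gave 10 CPM or more, and in 6 members it was the reverse. All 17 had 10% own 31-mers or fewer. Of the 883 members tested between library types, 84 had none and 123 had above 0 and up to 10%.

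Eif4a-ps4, a copy of the translation helicase gene Eif4a1, led the members without ladder counts. It had 0 counts in all 8 ladder libraries and 307, 335 and 227 CPM in the standard libraries, at least 27898-fold lower in ladder by a floor of 3 counts over the group. Tpt1-ps3 (Tpt1) was at 0 in all ladder libraries and at 196, 190 and 168 CPM in standard libraries, at least 17761-fold lower. Gm4739 (Hmgb2) and Gm10288 (Rpl11) were at least 13948-fold and 12211-fold lower. Gm12671 and Gm10359, 2 identical copies of Gapdh on chromosomes 4 and 5, both had 34.96, 83.4 and 52.7 CPM in standard libraries and no ladder count, at least 5487-fold lower. Of these coding genes, Tpt1 and Gapdh were higher in ladder libraries (log2 fold changes 1.35 and 2.45) and so was Rpl11 (2.29), all called by edgeR (adjusted p = 7.96e-05, 1.96e-05 and 3.73e-05), whereas Eif4a1 and Hmgb2 were not called.

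The reverse pattern was led by Rpl19-ps11, a copy of the large-subunit gene Rpl19. It had 542, 569, 415 and 747 CPM on the shared scale in WT ladder libraries and 0 in every standard library, at least 9400-fold higher. Gm12895 was at 225, 31.8, 310 and 249 CPM in ladder and 0 in standard libraries, at least 3378-fold higher. Gm12896 on the same chromosome, like Gm12895 226 bases long with 1.02% own 31-mers, had the same ladder values to 3 digits but 37.9, 49.4 and 50.7 CPM in standard libraries. Gm10443 (Rps28), Gm12338 (Cox7c) and Gm10231 (Atp5g2), all without own 31-mers, were at least 740-fold, 612-fold and 362-fold higher in ladder libraries. Ribosomal parents shifted in the same comparison: of 59 tested, 44 were higher and 10 lower in ladder libraries with a median log2 fold change of 1.91, and of 97 tested ribosomal copies 39 were higher and 3 lower with a median of 1.51, beside 30.8% of all genes higher and 30.3% lower (61.1% in all).

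**Figure D4:**
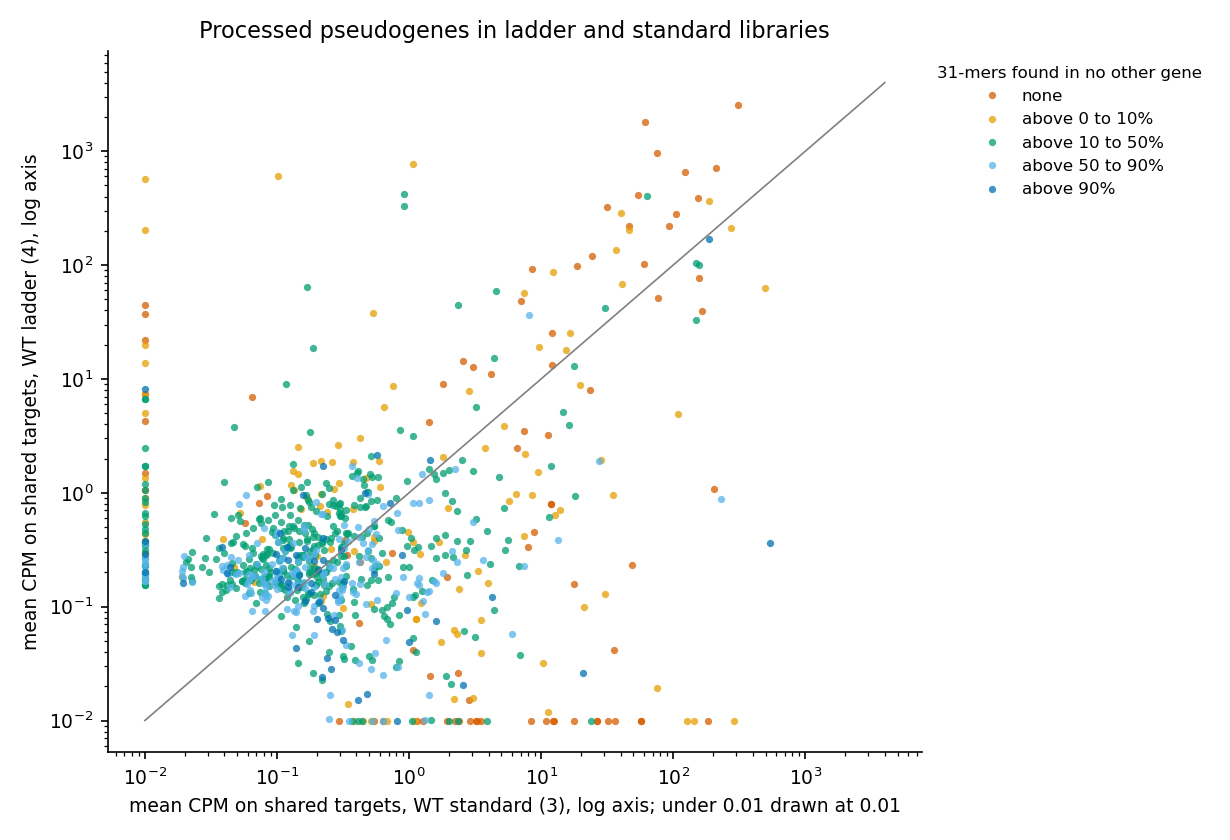
Mean CPM on shared targets of processed pseudogenes tested in WT ladder (4 libraries, vertical) and WT standard (3 libraries, horizontal) comparison, both axes logarithmic, coloured by own 31-mers, with the line of equality. Points along the left and lower edges, drawn at 0.01, have under 0.01 CPM in one library type, such as Eif4a-ps4 at 0 in ladder and Rpl19-ps11 at 0 in standard libraries.

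Runs of a single base were looked for after the values were seen, so the counts below are a description. A run of 31 or more equal bases, long enough to fill a 31-mer, occurred in 11 of the 9655 members, 7 with A, 3 with T and 1 with C. Of the 10 that were tested between library types, 8 were lower in ladder libraries, 1 was higher (Mrpl23-ps1) and Gm19220 was not called. Among all shared targets tested, 23.4% were lower and 24.0% higher in ladder libraries. Gm2961, with 97.4% own 31-mers, had 0.219, 0.409, 0.462 and 0.363 CPM in ladder and 464, 700 and 453 CPM in standard libraries (log2 fold change -10.51, SE 0.35, edgeR adjusted p = 7.87e-06). Gm15515 had 0.572, 0.976, 1.06 and 0.933 CPM in ladder and 194, 318 and 177 CPM in standard libraries (-8.02, SE 0.35, adjusted p = 1.59e-05). In both, standard replicate 2 was the highest. Summed over the 11 members the level was 258 CPM in ladder and 1028 CPM in standard libraries. Which bases of these members, Gm19220 included, the reads came from was not tested.

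Not every member with a high share of own 31-mers that differed had such a run. Vamp7-ps, with 100% own 31-mers and no run of that length, was at 8.04, 8.64, 7.94 and 8.30 CPM in WT ladder libraries and at 0 in the 3 standard libraries, at least 136-fold higher in ladder. Between genotypes it stood at 4.97 to 5.31 CPM in WT and 3.29 to 4.24 CPM in KO (log2 fold change -0.38, SE 0.13, edgeR adjusted p = 0.0447). Gm7061 on the X chromosome, with 90.6% own 31-mers, rose in KO from 0.0159 to 0.0675 CPM to 0.380 to 0.573 CPM (3.73, SE 0.38, adjusted p = 0.000189). It was below the level set for naming and, like Vamp7-ps, was chosen after its values were seen. All WT values of Gm7061 lay under the minimum of the low-count filter, which it passed by its KO values alone. Its call therefore depends on that selection, and its fold change rests on very few WT counts. Of the 38 tested members with over 90% own 31-mers, 4 were higher and 13 lower in KO, beside 18.2% higher and 19.1% lower among all targets tested. Some of these members passed the low-count filter by 1 genotype alone. Gm17922 and Gm12947, among the 13, did so by WT, with KO libraries at 0.0760 CPM or less. Gm715 and Gm7061, among the 4, did so by KO. The counts therefore depend in part on that selection.

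Native long reads gave pseudogenes a larger share of TPM than the WT ladder libraries, where it was 2.15% over every target. Over the annotated targets shared by all files it was 4.21% in WT ladder and 3.53% in WT standard libraries. The measures are unlike, since native TPM belongs to assembled structures over a member and short-read TPM to the targets themselves. Each assembly pools the replicates of 1 genotype and 1 chemistry, so its values carry no replicate error and no test was made. A single-exon StringTie structure covered 50% or more of 408 members on their strand in native WT RNA and of 413 in native KO RNA. FLAIR gave 224 and 222. In cDNA, StringTie gave 32 and 26 members and FLAIR 252 and 192, but where structures of either strand or none were admitted StringTie gave 1457 and 1471. Members with a structure in at least 1 of the 8 assemblies numbered 731, those in 4 or more 205, and none had one in all 8. The FLAIR files of native WT and KO share 22686 structure names. Among single-exon coding transcripts, 9.25% had a native WT StringTie structure, beside 4.23% of pseudogenes.

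The summed TPM of these structures was 9.26% of the native WT assembly and 9.24% of the native KO assembly, but 0.0188% and 0.0131% of the cDNA assemblies. Members with a ribosomal closest gene, 177 of the 408, held 82.6% of the native WT pseudogene TPM. The 31 members at 1000 TPM or more in native WT included 29 with a ribosomal closest gene and 21 without own 31-mers. Members near their parent in sequence were covered most often: 51 of 60 named copies at 99.5% identity or more had a native WT structure (85.0%), 49 of 110 between 98% and 99.5%, and 2 of 138 under 90%. Members tested in ladder libraries had a native WT structure in 25.4% and untested ones in 2.48%.

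Gm12918 had the highest native value, 3402 TPM in WT and 2811 TPM in KO, beside 1103 and 979 TPM for spliced Rpl13. Rps3a3 had 3195 and 3329 TPM, close in both genotypes, beside 237 and 295 TPM for spliced Rps3a1. Rpl31-ps8 had 2973 and 2792 TPM beside 215 and 347 TPM for spliced Rpl31. In each of these cases the structure on the copy carried more TPM than the spliced structures of the gene. Rpl3-ps1 had 3135 TPM in WT and 1497 in KO, while spliced Rpl3 had 96.4 and 867 TPM. Gm7536 and Rps23-ps1 had 2877 and 2672 TPM in WT and no single-exon StringTie structure on their strand in native KO.

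Native and ladder levels were only loosely related. Over the 315 members above 0 in both, Spearman's rho between native WT TPM and mean WT ladder TPM was 0.33, as a description over copies that share reads with the same genes. Of the 408 members with a native WT structure, 93 had no count in any WT ladder library and 222 were under 0.1 CPM. Gm14303 (Rps29), Rps13-ps2 and Gm12191 (Rpl30) had 2377, 2310 and 2161 native WT TPM, with 0.00942 CPM or less in every ladder library of either genotype. These 3 have no own 31-mer and were chosen after their values were seen. Between native WT and KO, 346 members had a structure in both, with a median KO to WT ratio of 1.22, and 272 of them lay within 2-fold.

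**Figure D5:**
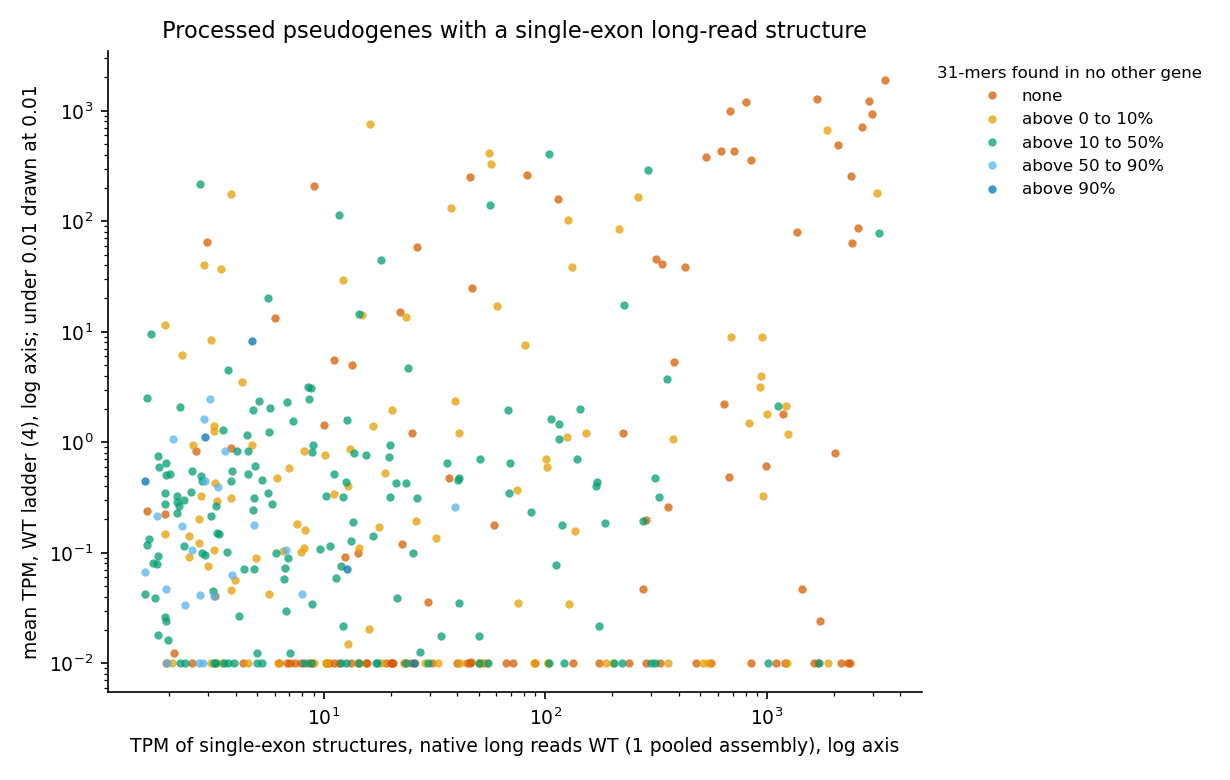
TPM of single-exon native WT structures (1 pooled assembly, horizontal) against mean TPM in the 4 WT ladder libraries (vertical, values under 0.01 drawn at 0.01), both axes logarithmic, for the 408 members with a structure, coloured by own 31-mers. Points on the lower edge include members above 1000 native TPM that have almost no ladder counts.

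Single-exon cDNA structures on the strand of a pseudogene were few, and their TPM was low by StringTie. Rpl17-ps3 led with 96.6 TPM in WT and none in KO, followed by Gm4204 (Nap1l1, a histone chaperone) with 22.1 and 32.1 TPM and Gm5776 (Mrps33, of the mitochondrial ribosome) with 11.7 TPM in WT and none in KO. Gm36985, Gm9512 (Eef1a1, which brings tRNAs to the ribosome) and Gm7964 (Hnrnpk, an RNA-binding protein) had 11.1, 8.03 and 5.26 TPM in WT. In ladder libraries Rpl17-ps3 was at 118, 20.2, 13.2 and 20.2 CPM in WT and 54.7, 33.3, 11.6 and 4.35 CPM in KO, so the genotypes overlapped (edgeR adjusted p = 0.579). The other 5 had 0.419 CPM or less in every ladder library.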

How the data were processed

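Per the submitters' processing notes, kallisto was used, and its tables as deposited hold estimated counts and TPM for each target. TPM in a deposited table is relative to that table alone. Long-read structures came from FLAIR and StringTie 2.0, the latter with a TPM per structure, per the file headers. The notes give GRCm38 as the build and also list STAR 2.5.4b and minimap2 2.17.

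Members and lists were chosen with earlier results of these data known. Estimated counts were rounded and tested in edgeR 4.0.16 (R 4.3.3), with TMM, filterByExpr (minimum count 10) and quasi-likelihood tests adjusted by Benjamini-Hochberg over all features, threshold 0.05. Parents were tested as genes. Single values had exact permutation tests (scipy 1.17.1). A closest gene shares 20% or more of a copy's 31-mers, a limit set after seeing the data. Identity was aligned with Biopython 1.88. The fit was tested on simulated data. Depth limits precision as the standard errors show. Floors of 3 counts cover counting error only. Estimated counts of near-identical targets depend on how the authors' quantification split shared reads.

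Genes were named by rule: the 8 largest rises and 8 falls without overlap at an average log2 CPM of 0 or more, the 10 highest WT levels, 5 in each direction between library types, 6 by native and 6 by cDNA TPM, the 6 largest families, parents, and the 5 most like Rps6-ps4. Alternatives included DESeq2 1.42.0, other size factors, filters, features, pseudocounts and libraries left out.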

Additional observations from a re-analysis of the deposited data

Results flagged for a closer look

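In 126 groups of 4 ladder libraries, 1 for each named member and genotype, the highest or lowest library was compared with its neighbours, and 9 libraries stood far from the other 3 of their group, where chance gives about 1 in 20. In WT replicate 3, Rpl10a-ps1 was at 706 CPM (others 556 to 575), Rps6-ps4 at 2.29 CPM (0.295 or less) and Gm7901 at 8.90 CPM (7.84 to 7.94). In WT replicate 1, Rpl17-ps3 was at 118 CPM (13.2 to 20.2). Among KO libraries, Rpl3-ps1 was at 258 CPM in replicate 1 (others at or near 0) and Gm715 at 7.38 CPM in replicate 2 (0.160 to 0.285). Gm8341 was at 3.00 CPM in KO replicate 3 (2.24 to 2.35). In KO replicate 4, Rps23-ps1 was at 587 CPM (311 to 358) and Gm6756 at 0.704 CPM (0.619 to 0.629).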

How the results depend on the processing

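The counts of pseudogenes called between genotypes (61 higher, 114 lower) stayed within 1.5 times under every alternative run, 55 to 72 and 94 to 108 without 1 library, and so did those of parents (42 to 61 and 29 to 40). Between library types, 142 to 246 were higher and 184 to 216 lower without 1 library, and 126 and 125 among members with 100 or more own 31-mers. Replicate numbers did not pair the samples (correlations of -0.06, 0.08, -0.06 and 0.05 over 4 numbers, with 1 of 4 best matched to its own). With a replicate block, 52 and 80 members differed between genotypes, and Gm5417 and Rpl10a-ps1 were no longer called (adjusted p = 0.0551 and 0.0627). Between library types the block could be fitted over replicates 1 to 3 only, where 54 and 128 members differed with it and 143 and 189 without it, so fewer samples account for part of the fall from 234 and 204.

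The share of counts differed by -0.172 to -0.118 percentage points between genotypes without 1 library, by 0.170 with TPM (reversed) and by -0.237 over shared targets. Between library types it differed by 0.315 to 0.474 without 1 library, by 0.686 with TPM and by 0.0935 over every target. The cause was not tested. Single-exon structures covering 80% of a member gave 218 in cDNA WT FLAIR and 374 in native KO StringTie. Where the member had to cover as much of the structure, FLAIR gave 162, 127, 174 and 177 (cDNA WT, cDNA KO, native WT, native KO) and StringTie 21 in cDNA WT, 321 in native WT and 324 in native KO. On either strand, cDNA gave 754 and 652 by FLAIR and 1457 and 1471 by StringTie for WT and KO. Gm715 and Rpl10a-ps1 also lost their calls without a filter (adjusted p = 0.110 and 0.0760), as did Gm9762 (0.0740), and Gm715 with counts summed by gene (0.0564). Reads from copies identical to a parent match both at any depth.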
